A study of Mus musculus with 46 samples.

Results

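The lysine breakdown enzymes described here are the products of 5 mouse genes, Aass, Aldh7a1, Aadat, Dhtkd1 and Gcdh. Their members were taken as every probeset whose platform annotation gives 1 of these symbols and no other, which found 7 of the 45037 probesets and 5 of the 18193 genes with a probeset of their own. Aldh7a1 had 3 probesets, with means of 10.4, 5.37 and 4.62 over all arrays, of which the first stands for the gene unless stated, and each of the other genes had 1. The genes were chosen with the log2 values of the 8 h CIE minus Ctrl contrast in view, in which Aass was known to differ. For that reason the CIE minus Ctrl differences of the 5 genes are given as values with their errors and without p-values. The members were tested only between 0 h, 72 h and 7 d within a treatment. Within the fit, the 8 h arrays enter those tests through the shared estimate of the spread alone. The 8 h arrays were also part of the authors' normalization over all arrays.

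The tissue was the BNST, the stria terminalis bed nucleus of the extended amygdala, taken from adult male C57BL/6J mice. CIE mice breathed ethanol vapor and Ctrl mice air, for 16 h a day over 4 days, in 4 such cycles with 7 days of abstinence between cycles. Before each cycle, CIE mice were injected with ethanol at 1.6 g/kg and pyrazole, an alcohol dehydrogenase inhibitor, at 1 mmol/kg, while Ctrl mice were given saline with the same pyrazole, so Ctrl mice were not untreated. After the last exposure, brains were taken at once (0 h) or following 8 h, 72 h or 7 d, with 1 mouse per array. The CIE 7 d group had 4 mice and the other 7 groups had 6 mice each, 46 arrays in all. Values are log2 expression, so a difference of 1 is a doubling, and a probeset was called when its adjusted p was at or under 0.01 in a limma fit of all arrays (Benjamini-Hochberg over all probesets).

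Lysine is broken down in mitochondria along the saccharopine route. Aass joins lysine to oxoglutarate and splits the product, saccharopine, into glutamate and aminoadipate semialdehyde. Aldh7a1, also called antiquitin, oxidizes that semialdehyde to aminoadipate. Aadat moves the amino group of aminoadipate to oxoglutarate, and the same enzyme turns kynurenine into kynurenic acid, a blocker of glutamate receptors. Dhtkd1 is the first subunit of the oxoadipate dehydrogenase complex, which makes glutaryl-CoA, and Gcdh converts glutaryl-CoA to crotonyl-CoA while passing electrons to the electron transfer flavoprotein. In people, loss of ALDH7A1 causes pyridoxine-dependent epilepsy and loss of GCDH causes glutaric aciduria, both diseases of the brain.

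Array medians lay between 6.78 and 6.83 and no pair of arrays held identical values. Markers of neurons and of the labelled region lay above the median probeset mean of 6.79. With no other region set beside them, their levels do not show that the tissue was the labelled region. The mean of 7 neuron markers was 12.3 to 12.5 in every array, and the mean of 6 measured region markers of the BNST and lateral septum was 9.93 to 10.8. The mean of 4 measured markers of striatal medium spiny neurons varied most among the neural lists, from 8.57 to 10.6 over the 46 arrays, and it ranged from 8.57 to 10.6 within the Ctrl 7 d group as well. In bulk tissue, fewer cells of a type and less RNA per cell cannot be told apart.

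Aass, the enzyme that commits lysine to this route, was the member that stood higher in CIE mice at 8 h. At 0 h its log2 level ran from 7.29 to 7.51 with a median of 7.37 in CIE mice, and from 7.21 to 7.51 with a median of 7.26 in Ctrl mice. At 8 h it ran from 7.75 to 7.96 with a median of 7.90 in CIE mice, against 7.18 to 7.35 with a median of 7.28 in Ctrl mice. The 8 h groups did not overlap, with a gap of 0.41 between the lowest CIE mouse and the highest Ctrl mouse, whereas the 0 h groups lay over each other. Of all probesets, 0.524% had every CIE mouse above every Ctrl mouse at 8 h. Since Aass was chosen with this contrast in view, the share is a description only.

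At 72 h Aass ran from 6.89 to 7.25 with a median of 7.02 in CIE mice, and from 6.75 to 7.19 with a median of 6.97 in Ctrl mice. At 7 d the CIE mice had 6.70, 6.78, 6.87 and 6.88, and the 6 Ctrl mice ran from 6.43 to 6.74 with a median of 6.66. The groups overlapped at both times, although 3 of the 4 CIE mice at 7 d lay above all Ctrl mice of that time.

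**Figure D1:**
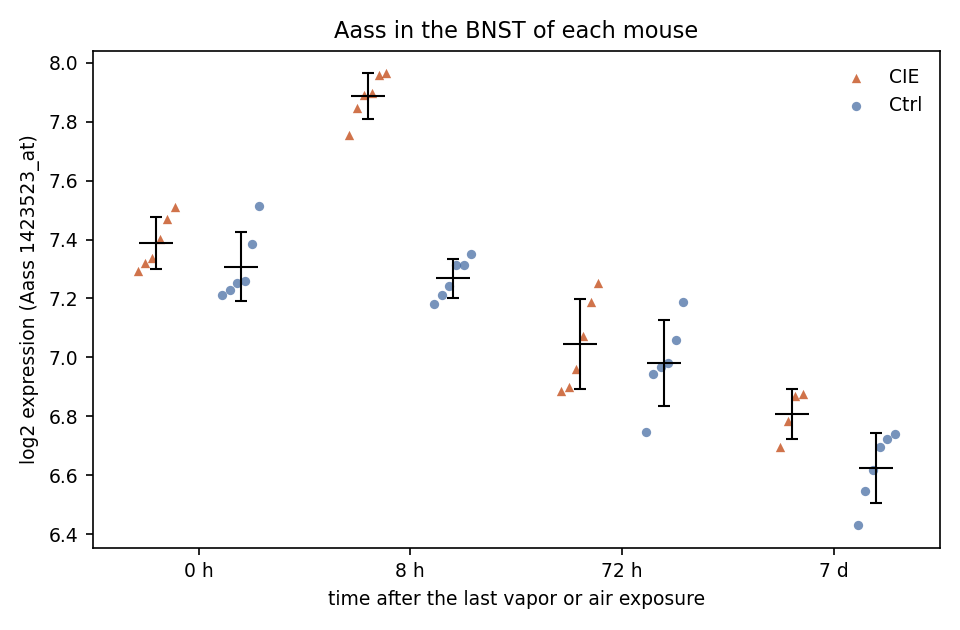
Log2 expression of Aass (vertical axis) in each mouse by time since exposure (0 h, 8 h, 72 h and 7 d, horizontal axis), with CIE mice as triangles and Ctrl mice as circles. Points are sorted by value within a group, and bars give the mean and 1 SD (n = 6, and 4 for CIE 7 d). CIE mice at 8 h sit between 7.75 and 7.96, above all other mice, and the 7 d groups are the lowest of both treatments.

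The CIE minus Ctrl difference of Aass was 0.08 ± 0.065 (log2 ± SE) at 0 h, with a 95% interval from -0.05 to 0.21. It was 0.62 ± 0.065 at 8 h, with an interval from 0.49 to 0.75, which is 1.53-fold higher in CIE mice. It was 0.06 ± 0.065 at 72 h (-0.07 to 0.20) and 0.18 ± 0.073 at 7 d (0.03 to 0.33). The size of the 8 h difference ranked 83 among the 45037 probesets, a description only, since Aass was chosen with this contrast in view. Between 0 h and 8 h the difference grew by 0.54 ± 0.092 (0.35 to 0.72), and it was -0.02 ± 0.092 different at 72 h and 0.10 ± 0.098 different at 7 d from its value at 0 h, both with intervals that include 0.

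Within CIE mice Aass stood 0.50 ± 0.065 higher at 8 h than at 0 h, with all 6 mice at 8 h above all 6 at 0 h, as in 2.48% of all probesets. Within Ctrl mice the same difference was -0.04 ± 0.065, with overlapping groups. In order of mean level the 8 groups ran CIE 8 h (7.89), CIE 0 h (7.39), Ctrl 0 h (7.31), Ctrl 8 h (7.27), CIE 72 h (7.04), Ctrl 72 h (6.98), CIE 7 d (6.81) and Ctrl 7 d (6.63). CIE 8 h and CIE 0 h were the only neighbours in that order whose mice did not overlap.

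The promoter of Aass is shown because Aass carries the change at 8 h, and that of Gcdh because Gcdh, the last enzyme of the route, did not share it. Both are RefSeq sequences of build GRCm38.p6, from 250 bases before to 50 bases after the gene start, 5′ to 3′ on the strand of the gene. Aass lies on the minus strand at chr6:23132937-23133236 and Gcdh on the minus strand at chr8:84893872-84894171. Capitals mark the letters TGACG, the core of the cyclic AMP response element, which the Gcdh window does not hold.
Aass: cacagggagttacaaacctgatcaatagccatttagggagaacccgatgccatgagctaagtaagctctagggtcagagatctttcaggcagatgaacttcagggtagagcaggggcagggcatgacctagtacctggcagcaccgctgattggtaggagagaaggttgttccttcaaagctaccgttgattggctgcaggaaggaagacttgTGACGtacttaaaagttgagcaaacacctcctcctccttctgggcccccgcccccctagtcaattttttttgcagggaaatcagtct
Gcdh: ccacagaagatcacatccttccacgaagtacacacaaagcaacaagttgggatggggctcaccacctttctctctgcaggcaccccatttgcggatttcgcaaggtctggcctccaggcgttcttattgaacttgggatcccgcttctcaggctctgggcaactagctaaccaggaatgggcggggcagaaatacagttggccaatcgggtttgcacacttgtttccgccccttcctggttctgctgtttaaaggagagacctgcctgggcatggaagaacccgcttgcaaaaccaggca
In the Aass promoter TGACG begins 37 bases before the start (position -37). TGACG on either strand was present in 20.8% of the 32851 promoters of the table. It was absent from the windows of Aadat, Dhtkd1 and Gcdh, the other 3 members whose windows were searched. The window of Aldh7a1 was left out of the search, so nothing is said of its letters. CACGTG, the E-box, occurred only in Dhtkd1 among these 4 windows, 16 bases after the start, and in 7.15% of all promoters. Neither AGAACA, the core of a glucocorticoid receptor site (19% of all promoters), nor GTAAACA, a FOXO site (3.65%), was found in the 4 windows. Both strands were searched, and these letters do not overlap each other in the matches found. A match is a description of letters and not of a factor bound there. The part of any match in the 8 h difference of Aass was not tested.

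The other 4 enzymes differed little between CIE and Ctrl mice at any time. Over the 4 members other than Aass, on the brightest probeset of each gene, CIE minus Ctrl ran from -0.10 (Gcdh) to 0.17 (Dhtkd1) at 0 h. It ran from -0.02 (Gcdh) to 0.07 (Aadat) at 8 h, from -0.06 (Gcdh) to 0.02 (Dhtkd1) at 72 h and from 0.00 (Gcdh) to 0.16 (Aadat) at 7 d. Aldh7a1, which acts directly after Aass, illustrates this at 8 h, where it ran from 10.42 to 10.65 with a median of 10.56 in CIE mice and from 10.46 to 10.54 with a median of 10.49 in Ctrl mice. The Ctrl range lay inside the CIE range, and the difference was 0.06 ± 0.036 (-0.01 to 0.13). At 0 h the difference was -0.06 ± 0.036 (-0.14 to 0.01), so that it changed by 0.12 ± 0.051 (0.02 to 0.23) between 0 h and 8 h.

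Dhtkd1 at 0 h ran from 8.44 to 8.67 with a median of 8.60 in CIE mice, and from 8.19 to 8.64 with a median of 8.45 in Ctrl mice, a difference of 0.17 ± 0.069 (0.03 to 0.31). Gcdh at 0 h ran from 8.86 to 9.05 with a median of 8.90 in CIE mice, and from 8.81 to 9.17 with a median of 9.07 in Ctrl mice, a difference of -0.10 ± 0.049 (-0.20 to -0.01). These 2 intervals leave out 0 before any adjustment, and the groups overlapped in both cases. Aadat, whose mean lies below the median probeset mean of 6.79, differed by 0.07 ± 0.082 at 8 h (-0.09 to 0.24). In Aadat the CIE 8 h group was wide because replicate 21 had 5.49 while the other 5 mice lay between 4.91 and 5.07.

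Of all probesets, limma called 1079 (2.4%) between CIE and Ctrl mice at 0 h, 251 (0.557%) at 8 h and 195 (0.433%) at 72 h. At 7 d no probeset of the array was called in limma (0%), while 2226 had an unadjusted p under 0.05. These counts cover all probesets, members included. Calls of the members are not given apart, since Aass was selected on its 8 h contrast. The median CIE minus Ctrl difference of the 7 member probesets was 0.05 at 8 h, against -0.00 for all probesets. The Aldh7a1 probesets of mean 5.37 and 4.62 had intervals that include 0 at all 4 times. At 72 h the interval of every member included 0, and at 7 d only that of Aass did not.

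**Figure D2:**
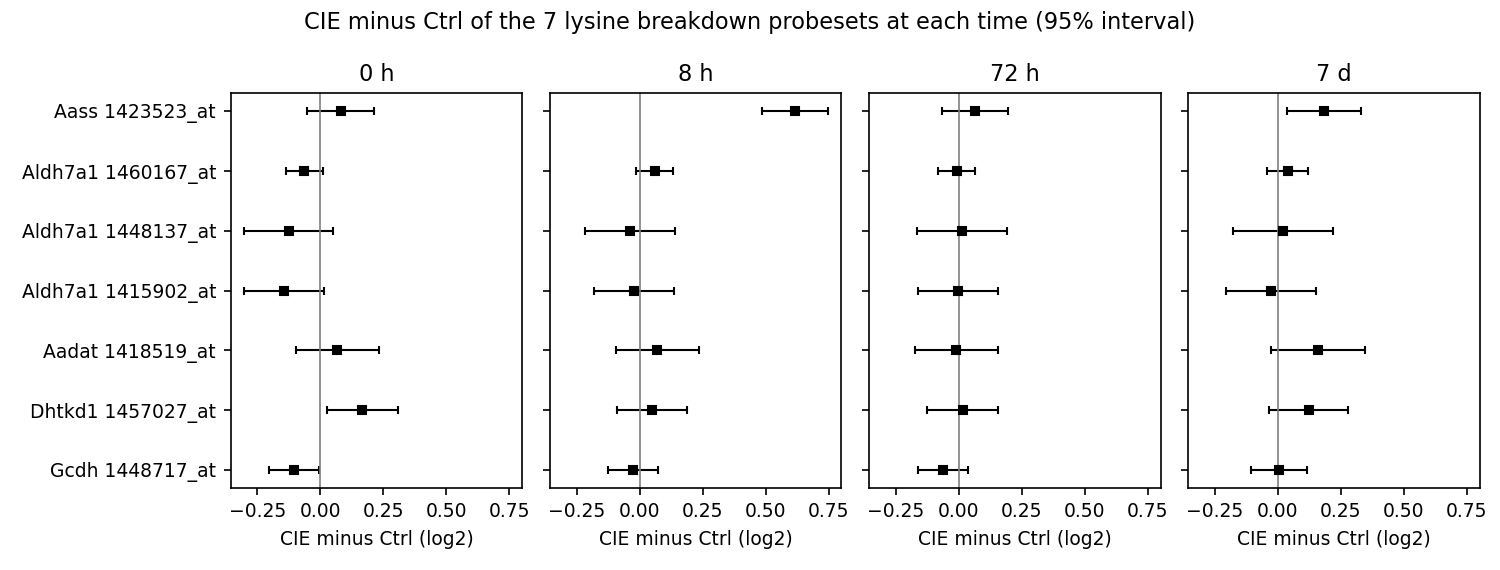
CIE minus Ctrl differences in log2 units (horizontal axis) of the 7 member probesets (rows) in 4 panels for 0 h, 8 h, 72 h and 7 d. Squares are the fitted differences and bars the 95% intervals (n = 6 a group, and 4 for CIE 7 d). Aass at 8 h, at 0.62, is the only difference in the plot over 0.20.

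Aass and the brightest probeset of Aldh7a1 were lower 7 d after the last exposure than directly after it, in both treatments. In Ctrl mice, which breathed only air, Aass, Aldh7a1 and Gcdh were called lower at 7 d than at 0 h. Of all probesets, 1.93% were called lower there. In CIE mice, Aass and Aldh7a1 were called lower, as were 1.78% of all probesets. Aadat and the dimmer Aldh7a1 probesets were called in neither treatment. These differences use no 8 h group mean, but they share arrays with the CIE minus Ctrl differences at 0 h, 72 h and 7 d. Time after exposure and the age of the mice cannot be told apart.

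Aass averaged 6.81 ± 0.085 (SD, n = 4) in CIE mice at 7 d and 7.39 ± 0.088 (n = 6) at 0 h, a difference of -0.58 ± 0.073 (SE) with limma adjusted p = 2.84e-07, which is 33.2% lower. In Ctrl mice it averaged 6.63 ± 0.12 at 7 d and 7.31 ± 0.12 at 0 h (SD, n = 6 each), a difference of -0.68 ± 0.065 with limma adjusted p = 8.55e-10, which is 37.7% lower. Every 7 d mouse lay below every 0 h mouse of its treatment, as in 4.43% of all probesets in CIE mice and 1.37% in Ctrl mice. The fall was partly present by 72 h, with -0.34 ± 0.065 in CIE mice (limma adjusted p = 2.25e-04) and -0.33 ± 0.065 in Ctrl mice (limma adjusted p = 0.00647).

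The Ctrl call at 72 h was not firm. It was lost, with limma adjusted p from 0.0101 to 0.0375, when any 1 of Ctrl 0 h replicates 12, 48 and 56 or Ctrl 72 h replicates 16, 24, 44 and 52 was left out, while the difference stayed between -0.37 and -0.28. It was also lost with array weights (adjusted p = 0.0287). From 72 h to 7 d Aass was lower by a further -0.35 ± 0.065 in Ctrl mice (limma adjusted p = 8.79e-04). The same step in CIE mice was -0.24 ± 0.073 (limma adjusted p = 0.137). All 4 mice at 7 d lay below all 6 at 72 h, as in 2.22% of all probesets.

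Aldh7a1 followed Aass in direction with smaller steps. In CIE mice it had 10.11, 10.19, 10.20 and 10.23 at 7 d, against 10.44 to 10.51 with a median of 10.48 at 0 h. In Ctrl mice it ran from 10.05 to 10.23 with a median of 10.14 at 7 d, and from 10.49 to 10.63 with a median of 10.52 at 0 h. The groups did not overlap in either treatment. Of all probesets, 4.43% in CIE mice and 1.37% in Ctrl mice had every 7 d mouse below every 0 h mouse.

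The 7 d minus 0 h difference of Aldh7a1 was -0.29 ± 0.0405 in CIE mice (limma adjusted p = 2.51e-06) and -0.40 ± 0.036 in Ctrl mice (limma adjusted p = 2.75e-10), 18.3% and 24.0% lower. At 72 h it was not called in either treatment, with -0.09 ± 0.036 in CIE mice (limma adjusted p = 0.12) and -0.14 ± 0.036 in Ctrl mice (limma adjusted p = 0.0647). Most of its fall came after 72 h, with -0.21 ± 0.0405 in CIE mice (limma adjusted p = 0.0203) and -0.25 ± 0.036 in Ctrl mice (limma adjusted p = 6.62e-05). The CIE step passed with array weights (adjusted p = 0.0016) and among brighter probesets alone (0.00776). The other Aldh7a1 probesets, which lie below the median probeset mean, were not called between any of these times and did not share one direction, running from -0.13 to 0.09.

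Gcdh was called lower only in Ctrl mice. It averaged 8.80 ± 0.083 at 7 d and 9.04 ± 0.13 at 0 h in Ctrl mice (SD, n = 6 each), a difference of -0.24 ± 0.049 (limma adjusted p = 0.00153). In CIE mice it had 8.72, 8.80, 8.84 and 8.85 at 7 d, against 8.86 to 9.05 with a median of 8.90 at 0 h, a difference of -0.13 ± 0.055 (limma adjusted p = 0.20). Every CIE mouse at 7 d lay below every CIE mouse at 0 h, as in 4.43% of all probesets, and the difference missed the threshold. Between 72 h and 7 d Gcdh differed by -0.19 ± 0.049 in Ctrl mice (limma adjusted p = 0.00851), a call lost with adjusted p from 0.0112 to 0.0381 when any 1 of Ctrl 72 h replicates 16, 34, 44 and 68 or Ctrl 7 d replicates 28, 36, 62, 70 and 80 was left out.

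Dhtkd1 moved the same way without being called. Its 7 d minus 0 h difference was -0.25 ± 0.078 in CIE mice (limma adjusted p = 0.0495) and -0.21 ± 0.069 in Ctrl mice (limma adjusted p = 0.0626), and its 7 d minus 72 h difference in Ctrl mice was -0.26 ± 0.069 (limma adjusted p = 0.0106). The last of these passed (adjusted p from 0.00337 to 0.00989) without any 1 of Ctrl 0 h replicates 12, 48 and 56, Ctrl 72 h replicate 52, Ctrl 7 d replicates 46 and 62, CIE 8 h replicate 21 and CIE 72 h replicates 3 and 63. It passed with array weights (0.0034) and among brighter probesets alone (0.00641) as well, and the CIE difference between 7 d and 0 h passed with array weights (0.00619). Aadat showed no such step, with -0.01 ± 0.092 in CIE mice (-0.20 to 0.17) and -0.10 ± 0.082 in Ctrl mice (-0.27 to 0.06) between 7 d and 0 h.

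**Figure D3:**
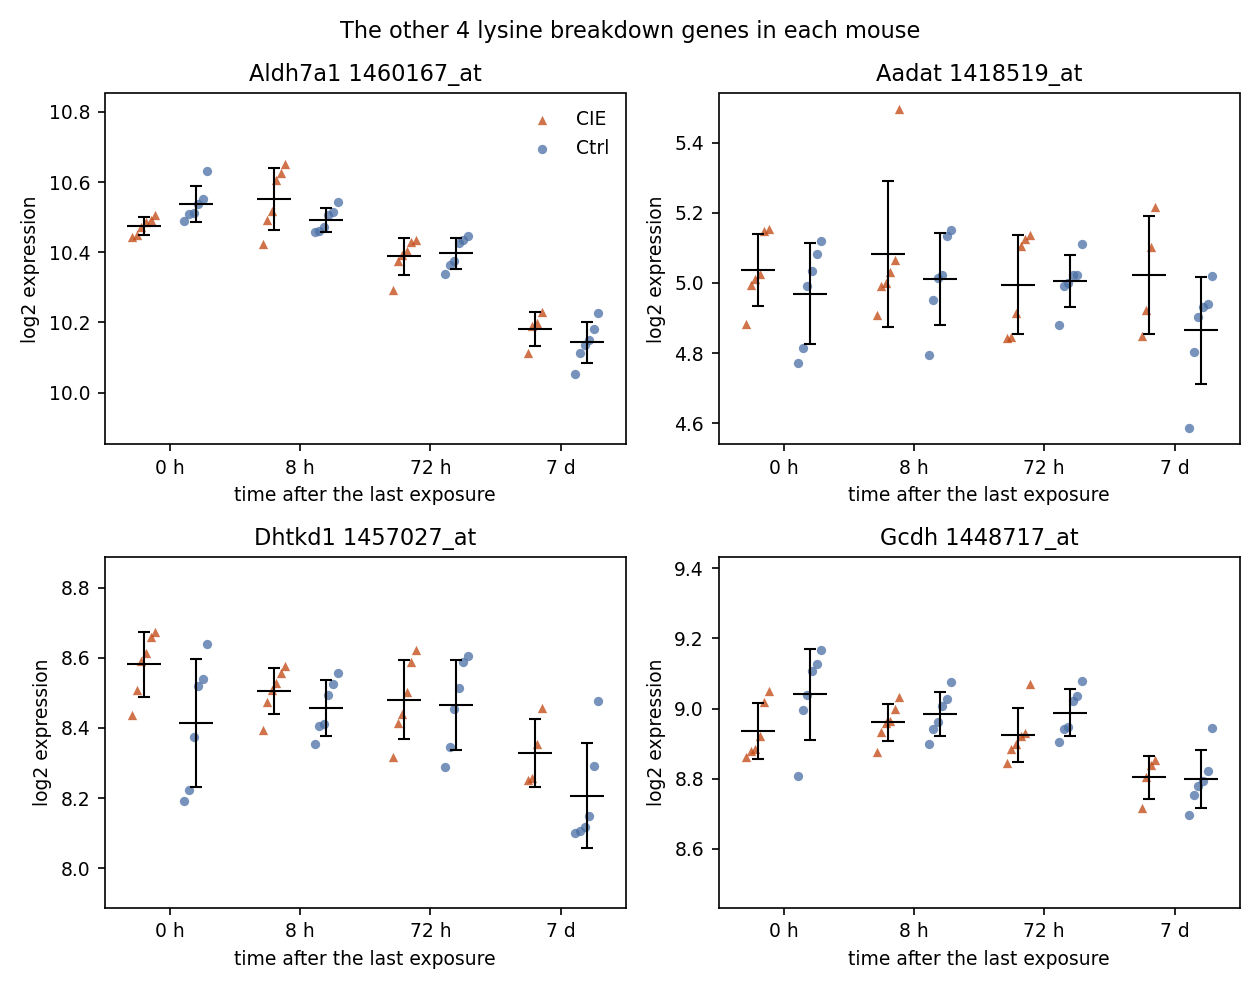
Log2 expression of Aldh7a1, Aadat, Dhtkd1 and Gcdh (vertical axes, each spanning 1 log2 unit) in each mouse at the 4 times (horizontal axes), CIE as triangles and Ctrl as circles. Points are sorted by value within a group, and bars give the mean and 1 SD. Aldh7a1 lies between 10.05 and 10.23 at 7 d in both treatments, below all mice of the earlier times, and CIE and Ctrl mice overlap at every time in all 4 panels.

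Counted over the 7 member probesets, limma called 1 lower in CIE mice between 72 h and 0 h (2.43% of all probesets were called lower) and 1 in Ctrl mice (0.0955%). Between 7 d and 0 h it called 2 lower in CIE mice (1.78%) and 3 in Ctrl mice (1.93%). Between 7 d and 72 h it called 0 in CIE mice (0.00222%), where 3 members and 14.3% of all probesets had an unadjusted p under 0.05, and 3 lower in Ctrl mice (3.42%). No member was called higher in any of these tests. Members with all mice of the later time below all mice of the earlier numbered 2 between 72 h and 0 h in each treatment (2.82% of all probesets in CIE mice, 0.435% in Ctrl mice). Between 7 d and 0 h they numbered 3 in CIE mice (4.43%) and 2 in Ctrl mice (1.37%), and between 7 d and 72 h 2 in each (2.22% in CIE mice, 3.77% in Ctrl mice). The median 7 d minus 0 h difference over the 7 probesets was -0.13 in CIE mice, against 0.01 for all probesets, and -0.21 in Ctrl mice, against -0.00. In Ctrl mice all 7 were below 0, as were 51.3% of all probesets.

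Whether the falls were equal in both treatments is not settled by these arrays. The 7 d minus 0 h difference in CIE mice less that in Ctrl mice was 0.10 ± 0.098 for Aass (-0.10 to 0.30), 0.10 ± 0.054 for Aldh7a1 (-0.01 to 0.21), 0.11 ± 0.074 for Gcdh (-0.04 to 0.26) and -0.04 ± 0.10 for Dhtkd1 (-0.25 to 0.17). These intervals include 0 and leave room for a fall smaller in CIE mice by up to 0.30 in Aass. For Gcdh too, the call in Ctrl mice alone does not show a difference between treatments.

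**Figure D4:**
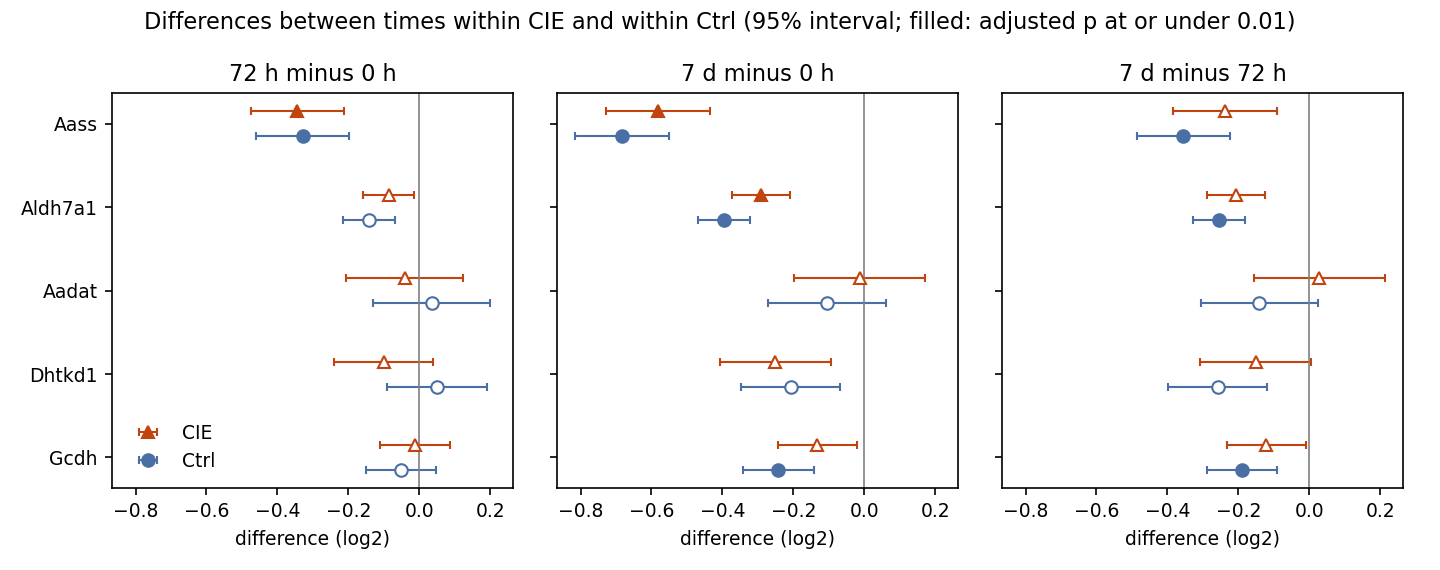
Differences between times in log2 units (horizontal axis) of the 5 genes (rows, brightest probeset), in 3 panels for 72 h minus 0 h, 7 d minus 0 h and 7 d minus 72 h. Triangles are CIE and circles Ctrl, bars are 95% intervals, and filled symbols have a limma adjusted p at or under 0.01. Aass is filled in both treatments at 72 h and 7 d against 0 h, Aldh7a1 in both at 7 d against 0 h, and Aadat in no panel.

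Aass and Aldh7a1 followed each other mostly through the group means. Over the 46 arrays Pearson's r between Aass and Aldh7a1 was 0.81, and it was 0.15 once each group's mean was taken out. Aldh7a1 and Gcdh had r = 0.69 over the arrays and 0.32 within groups, while Aadat stayed at or under 0.35 with each of the others. Dhtkd1 and Gcdh kept more of theirs, with r = 0.49 over the arrays and 0.33 within groups. These correlations describe arrays that share treatments, times and processing.

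Among 18192 other genes, those most like Aass over the 46 arrays were Fam107a, Aox1 and Sat1 (r = 0.90 each), Fam20a (0.89) and Trim56 (0.88), with r within groups between 0.24 and 0.42. Sat1 acetylates spermidine and spermine, and Aox1 is an aldehyde oxidase. Most like Aldh7a1 were Bdh2 (0.94), Mt1 (0.92) and Dmp1 (0.91), Mt1 being a metal-binding metallothionein. Most like Dhtkd1 were Uevld, Odc1 and Ttc33 (0.82, 0.82 and 0.81), and most like Gcdh were Ndufc1, Acot11 and Mcc (0.84, 0.84 and 0.82). Aadat reached only 0.70 with Spag6, 0.67 with Trpv4 and 0.60 with Mlph.

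Enzymes around the route were followed in 7 lists of 73 genes, of which 67 had a probeset of their own. They include lysine carriers and side routes, the shared dehydrogenase subunits and electron transfer chain, the steps from crotonyl-CoA to acetyl-CoA, kynurenine metabolism, branched-chain and other mitochondrial amino acid breakdown, and the aldehyde dehydrogenase family. The lists were drawn up with earlier results of these data known, so their calls are not independent tests. Each gene is represented by its brightest probeset, whereas shares of all probesets include dim and unnamed ones. Between CIE and Ctrl mice at 8 h limma called 1 of 67 genes, Kyat3, against 0.557% of all probesets. Kyat3 is a kynurenine aminotransferase, so it makes kynurenic acid as Aadat does.

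Kyat3 at 8 h ran from 8.47 to 8.90 in CIE mice and from 8.20 to 8.42 in Ctrl mice. These groups did not overlap, as in 0.524% of all probesets with CIE mice higher, and the difference was 0.36 ± 0.070 (limma adjusted p = 0.00205). The call was lost without CIE 8 h replicate 21 (0.31, adjusted p = 0.0106), the mouse with the highest Kyat3 of its group and the highest Aadat. At 0 h Kyat3 was also called, at 8.66 ± 0.055 in CIE mice and 8.38 ± 0.15 in Ctrl mice (SD, n = 6 each), 0.29 ± 0.070 higher (limma adjusted p = 0.00788). That call was lost, with adjusted p from 0.0134 to 0.0338, when any 1 of CIE 0 h replicates 17, 26, 43, 57 and 67 or Ctrl 0 h replicates 38, 48 and 56 was left out, and with array weights (0.0167).

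The difference in Kyat3 was -0.19 ± 0.070 at 72 h (limma adjusted p = 0.176) and 0.07 at 7 d, and its change from 0 h to 72 h was called at -0.48 ± 0.099 (limma adjusted p = 0.00333). Kyat3 itself fell in CIE mice to 8.15 ± 0.057 at 72 h, against 8.66 ± 0.055 at 0 h (-0.51 ± 0.070, limma adjusted p = 9.39e-07). Aass and Kyat3 were thus both higher in CIE mice at 8 h, but at 0 h Kyat3 had its higher level already whereas Aass differed by 0.08.

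At 0 h limma called 3 of the 67 genes lower in CIE mice (1.35% of all probesets were called lower). Dlst, a subunit that the oxoglutarate dehydrogenase shares with the oxoadipate dehydrogenase of Dhtkd1, averaged 10.6 in CIE mice and 10.7 in Ctrl mice, -0.18 ± 0.045 lower (limma adjusted p = 0.00941). Glud1, glutamate dehydrogenase, differed by -0.20 ± 0.040 (limma adjusted p = 7.66e-04), with all 6 CIE mice below all 6 Ctrl mice. Aldh3b1, an aldehyde dehydrogenase of lipid aldehydes, differed by -0.26 ± 0.061 (limma adjusted p = 0.00638), again with no overlap. Of all probesets, 1.35% had every CIE mouse below every Ctrl mouse at 0 h. A second probeset of Dlst differed by -0.32 (limma adjusted p = 0.00143), another 2 of Dlst were not called, and the second probeset of Glud1 differed by -0.24 (limma adjusted p = 0.00565). With each gene represented by its probeset of largest SD, Ogdh of the oxoglutarate dehydrogenase and Acat1, which splits acetoacetyl-CoA, were called at 0 h as well. The Dlst call was lost in 30 of the 46 fits without 1 array (adjusted p up to 0.0339), of which 9 left out a mouse of these groups, with array weights (0.0206) and with array medians aligned (0.0145), and the Aldh3b1 call in 7 (up to 0.0271), those without CIE 0 h replicates 26, 43 and 57 or Ctrl 0 h replicates 12, 30, 38 and 56, while the Glud1 call was lost in none. In a fit of the 0 h groups alone none of the 4 genes called at 0 h passed, with adjusted p from 0.0205 (Aldh3b1) to 0.105 (Dlst), and Kyat3 at 8 h had 0.0413 in a fit of the 8 h groups alone.

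No gene of the lists was called at 72 h or 7 d in limma, where the genes with an unadjusted p under 0.05 were 15 of the 67 at 72 h (12.6% of all probesets) and 1 at 7 d (4.94%). Where a list had no called gene, its lowest p belonged to Pipox at 0 h and 8 h (-0.25 and -0.30, adjusted p = 0.0778 and 0.0666) and Slc7a2 at 72 h (-0.34, adjusted p = 0.0903) among lysine carriers and side routes. Pipox oxidizes pipecolate, the side route of lysine, and Slc7a2 carries lysine into cells. In the crotonyl-CoA list these were Hadhb at 0 h (-0.24, adjusted p = 0.0142), Echs1 at 8 h (0.11, adjusted p = 0.501) and Hadh at 72 h (-0.26, adjusted p = 0.0574). In the other lists they were Bckdhb at 0 h, Etfb, Acad8, Prodh and Aldh18a1 at 8 h, Etfb, Kyat3, Auh, Glud1 and Aldh3b1 at 72 h, and Phykpl, Etfdh, Echs1, Qprt, Mccc2, Prodh and Aldh1b1 at 7 d, with limma adjusted p of 0.0896 or more.

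Between 7 d and 0 h in Ctrl mice limma called 9 of the 67 genes lower and 0 higher, which is 13.4% of them, against 1.93% of all probesets called lower. They were Etfdh, which takes electrons from the flavoprotein that Gcdh reduces (-0.19 ± 0.045, limma adjusted p = 0.00693), Ivd of leucine breakdown (-0.23), Hibadh of valine breakdown (-0.20), Aldh6a1 (-0.22), the proline dehydrogenase Prodh (-0.43 ± 0.073, limma adjusted p = 2.04e-04), and the aldehyde dehydrogenases Aldh1a1 (-0.74 ± 0.14, limma adjusted p = 9.45e-04), Aldh1l1 (-0.52 ± 0.070, limma adjusted p = 2.56e-06), Aldh2 (-0.37) and Aldh9a1 (-0.25). The median over the 67 genes was -0.10, against -0.00 for all probesets. In these and the later shares the 67 are brightest probesets of named genes, so they are set against an unlike whole. The Etfdh call was lost (adjusted p up to 0.0288) without Ctrl 0 h replicate 12 or 64 or Ctrl 7 d replicate 28, 36 or 62, with array weights (0.0279) and with array medians aligned (0.0137), and the Aldh6a1 call (up to 0.0108) without Ctrl 7 d replicate 28 or 36.

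In CIE mice 4 of the 67 genes were called lower at 7 d than at 0 h (1.78% of all probesets were), namely Kyat3 (-0.47 ± 0.078), Prodh (-0.51 ± 0.082), Aldh1a1 (-0.79 ± 0.16) and Aldh1l1 (-0.38 ± 0.078), and 1, Glud1, was called higher (0.19 ± 0.044, limma adjusted p = 0.00489). Without CIE 7 d replicate 27 the Aldh1a1 and Aldh1l1 calls were lost (adjusted p = 0.0166 for Aldh1a1, and just over 0.01 for Aldh1l1), and the Glud1 call was lost (up to 0.0378) without CIE 0 h replicate 57 or 67 or CIE 7 d replicate 45 or 65. Between 7 d and 72 h in Ctrl mice 10 were called lower and 0 higher (14.9%, against 3.42% of all probesets called lower), adding Etfb, Hadh, Hadhb and Aldh5a1 to Etfdh, Ivd, Hibadh, Aldh6a1, Prodh and Aldh1l1. Of these 10, the calls of Etfdh, Ivd and Hibadh held in all 46 fits without 1 array. The other 7 were each lost in 1 to 8 fits (adjusted p up to 0.0342), all without a mouse among Ctrl 7 d replicates 28, 36, 62, 70 and 80 or Ctrl 72 h replicates 16, 34, 44 and 68. The Aldh5a1 call was also lost with array medians aligned (0.0106). Between 72 h and 0 h limma called 3 in CIE mice, Kyat3 lower and Dlst and Glud1 higher, which is 4.48% of the 67 and below the 6.07% of all probesets called. In Ctrl mice it called 0, while 9 of the 67 and 11.9% of all probesets had an unadjusted p under 0.05. The Dlst call was lost (adjusted p up to 0.0296) without CIE 72 h replicate 35 or 63 or CIE 0 h replicate 26, 43, 57 or 67. Prodh, Aldh1a1 and Aldh1l1 were lower at 7 d in both treatments, as were Aass and Aldh7a1.

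Markers of cell types were called in several of the same comparisons. At 8 h 1 of 10 astrocyte markers, Gjb6, was called higher in CIE mice (11.48 in CIE mice and 11.01 in Ctrl mice, 0.47), and the mean of the list ran from 11.2 to 11.3 in CIE mice and from 11.1 to 11.3 in Ctrl mice. In the same contrast 1 of 5 oligodendrocyte precursor markers, Gpr17, was called lower (-0.50), and 0 of the markers of oligodendrocytes (7), microglia (6), endothelium (5), neurons (7), choroid plexus and ependyma (6), striatal neurons (4) and the region (6) were called. The part of these in the 8 h difference of Aass was not tested.

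Between 7 d and 0 h in Ctrl mice 4 of 10 astrocyte markers were called lower (Gfap -0.69, Gjb6 -0.60, Aldh1l1 -0.52, Sox9 -0.43) and 1 higher (Slc1a3 0.23). Aldh1l1 is also among the 67 genes above, so the counts of that set and of the astrocyte markers are not separate. The mean of the 10 ran from 10.9 to 11.2 at 7 d and from 11.1 to 11.4 at 0 h. The endothelial marker Cldn5 was lower (-0.50) and Gpr17 was higher (0.64). In CIE mice 2 of the 10 were lower (Gjb6 -0.94, Aldh1l1 -0.38) and Slc1a3 was higher (0.20), the mean of the list running from 10.9 to 11.1 at 7 d and from 11.1 to 11.2 at 0 h, the choroid plexus gene Kl was lower (-0.46) and Gpr17 was higher (0.76). The 4 striatal markers had a median difference of 0.32 in CIE mice and 0.62 in Ctrl mice, with none called. The part of astrocyte content or of the dissection in the lower Aass, Aldh7a1 and Gcdh at 7 d was not tested.

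Between 72 h and 0 h in CIE mice, where Aass was called, markers of several cell types were called in both directions. Gjb6 (-0.62), the oligodendrocyte genes Mobp (-0.21) and Mal (-0.32) and the ependymal gene Foxj1 (-0.38) were lower. Aqp4 (0.41), Slc1a3 (0.20), Gpr17 (0.56), the endothelial gene Tek (0.42) and the region marker Zic1 (0.42) were higher. Of all probesets, 2.43% were called lower and 3.65% higher there. In Ctrl mice over the same times Slc1a3 (0.26) and Gpr17 (0.88) were higher and no marker was lower. In Ctrl mice between 7 d and 72 h the markers called were all lower. They were Aldh1l1 (-0.31) and S100b (-0.22) of 10 astrocyte markers, and Tmem119 (-0.51) and Aif1 (-0.52) of 6 microglia markers. Cldn5 (-0.37) and Tek (-0.35) of 5 endothelial markers and Lhx8 (-0.65) of 6 region markers were the others. Of all probesets, 3.42% were called lower and 1.74% higher between these times. The part of these in the differences of Aass, Aldh7a1 and Gcdh between the same times was not tested.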

How the data were processed

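RNA from the BNST of 46 mice was hybridized to Affymetrix mouse arrays, 1 mouse each. The authors deposited log2 expression values, made with RMA background correction and quantile normalization within each hybridization batch, a second quantile normalization over all arrays, and ComBat for hybridization group. The batch of each array, the terms ComBat kept and the tool versions are not given in the sources used here. Within-batch values could therefore not be computed, and the spread after such correction can be too small. The number of arrays limits the precision. Probesets were named from the platform annotation, with 1 symbol for 34945 of 45037 probesets, several for 932 and none for 9160, and none of several symbols was used. Members matched RefSeq symbols through Entrez ID.

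One limma model (version 3.58.1, R 4.3.3) held the 8 group means of all arrays (eBayes, 38 residual degrees of freedom), with Benjamini-Hochberg adjustment over all 45037 probesets within each comparison and a threshold of 0.01. The fit was tested on simulated data. The members and gene lists were chosen with earlier results of these data known. All member probesets are given; a gene is represented by its probeset of highest mean. Of the 7 pathway lists every called gene is named, and where a list had none, the gene of lowest p in the CIE minus Ctrl comparisons. The 5 genes most like Aass, and the 3 most like each other member, were ranked by Pearson's r. Alternatives were array weights, aligned array medians, brighter probesets only, a trended robust prior, fits of 2 groups alone, the probeset of largest SD and leaving out each array. Figures were drawn with matplotlib 3.10.9 in Python 3.11.15.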

Additional observations from a re-analysis of the deposited data

Results flagged for a closer look

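Aadat, the aminoadipate and kynurenine aminotransferase, stood apart in CIE 8 h replicate 21, at 5.49 on the log2 scale, while the other 5 mice of that group lay between 4.91 and 5.07. It was the 1 group so marked among the 56 groups checked over the 7 member probesets, and chance marks about 1 in 20. The same mouse had the highest Kyat3 of its group.

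The CIE minus Ctrl difference of Kyat3 changed between 0 h and 72 h by -0.48 ± 0.099 (log2 ± SE, limma adjusted p = 0.00333).

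The CIE minus Ctrl difference of Aass was 0.54 larger at 8 h than at 0 h. This is a description, since Aass was known from the 8 h contrast, and the difference was not tested.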

How the results depend on the processing

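No paired analysis was possible because the groups share no replicate numbers. With array weights 128 of 147 values counted as unchanged, and with array medians aligned 144 of 147. With brighter probesets only 88 of 92 did, in fits of 2 groups alone 33 of 41, and with a trended robust prior all 41. For tested differences, unchanged meant the same direction and side of the threshold. For counts of calls it meant a similar size. For untested member differences it meant a shift under the residual SD, so those near 0 could change sign and still count as unchanged. The cause of the changes below was not tested. In fits of 2 groups alone, probesets called numbered 287 at 0 h, 36 at 8 h and 404 at 72 h (CIE minus Ctrl). With array weights they numbered 476 at 8 h and 1151 at 72 h, and between times 51 (Ctrl 72 h minus 0 h, with 0 members), 501 (Ctrl 7 d minus 0 h), 3840 (Ctrl 7 d minus 72 h), 5250 (CIE 72 h minus 0 h), 2377 (CIE 7 d minus 0 h) and 97 (CIE 7 d minus 72 h, with 1 member), and 64 for the change of the CIE effect from 0 h to 8 h. Among brighter probesets 10 were called in CIE 7 d minus 72 h, with 1 member. The Aldh7a1 probeset of mean 4.62 turned to -0.0067 in CIE 7 d minus 0 h with array weights.

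Leaving out 1 array in turn, probesets called ranged from 689 to 1459 at 0 h, 162 to 290 at 8 h, 28 to 375 at 72 h and 0 to 1 at 7 d (CIE minus Ctrl). They ranged from 49 to 104 in Ctrl 72 h minus 0 h (members 0 to 1), 532 to 2129 in Ctrl 7 d minus 0 h, 315 to 3094 in Ctrl 7 d minus 72 h (members 2 to 4), 1944 to 3085 in CIE 72 h minus 0 h, 758 to 1283 in CIE 7 d minus 0 h and 0 to 10 in CIE 7 d minus 72 h. For the change of the CIE effect from 0 h they ranged from 22 to 62 at 8 h, 303 to 573 at 72 h and 126 to 295 at 7 d. Differences near 0 changed sign, with ranges of -0.0776 to 0.0454 (Aadat, CIE 7 d minus 0 h), -0.0364 to 0.0866 (Aadat, CIE 7 d minus 72 h), -0.00398 to 0.0657 (Aadat, Ctrl 72 h minus 0 h), -0.0319 to 0.0493 (Aldh7a1 probeset of mean 4.62, CIE 7 d minus 0 h), -0.0251 to 0.0554 (Aldh7a1 probeset of mean 5.37, CIE 72 h minus 0 h) and -0.0404 to 0.0116 (Gcdh, CIE 72 h minus 0 h). CIE minus Ctrl differences near 0 changed sign as well, though none did at 0 h. At 8 h these were Aadat (-0.0118 to 0.105) and the Aldh7a1 probesets of mean 5.37 and 4.62. At 72 h they were Aadat, Dhtkd1 (-0.02 to 0.048) and all Aldh7a1 probesets. At 7 d they were Gcdh (-0.0156 to 0.0338) and the same Aldh7a1 probesets as at 8 h. The change of the CIE effect from 0 h changed sign in Aadat at 8 h, Aass at 72 h and Dhtkd1 at 7 d. The 8 h difference of Aass stayed between 0.60 and 0.64.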
